A study of Drosophila melanogaster with 13 samples.

Results

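The peak lists of 2 libraries, 1 from pooled stage 12 and 13 egg chambers and 1 from stage 10 egg chambers of Drosophila melanogaster, were compared for peaks gained, kept and lost between the stages. They are 2 of the 13 samples of a ChIP-seq series that also profiled larval salivary glands. Their sample titles and antibody labels say Cdc45, whereas the run name in the header of each deposited list says SUUR. They were chosen by that header name and are called here the libraries labelled Cdc45, and no measurement in the lists settles which antibody was used. Both came from OrR, a wild-type strain, whose females were fattened on wet yeast. For each ChIP, 600 egg chambers were picked from ovaries fixed in 2% formaldehyde, and the antibodies were made in-house. Each stage also had a guinea pig IgG library, which served as the background, and an input, against which the authors called the peaks. There was 1 library per stage and antibody, so no test between stages was possible. Intervals below are Wilson 95% intervals that cover counting error over peaks only. An egg chamber holds follicle cells, nurse cells and an oocyte, and the cells a peak comes from cannot be told apart here.

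Cdc45 is a component of the replicative helicase and travels with the replication fork. SUUR is a chromatin protein of late replicating and heterochromatic DNA that associates with forks and slows them in polyploid cells. In follicle cells a few amplicons are replicated beyond the rest of the genome: origins fire repeatedly up to stage 10, after which firing stops at the chorion loci and the forks already started move outward, so that in stages 12 and 13 these loci are sites of elongation without initiation. The chorion loci on 3L (DAFC-66D) and on X (DAFC-7F) encode eggshell proteins. Coordinates are of dm3 (Release 5), and locus windows, rounded to 0.1 Mb, were written from general knowledge and are approximate.

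The libraries held 6942374 tags at stages 12-13 and 8265341 at stage 10 after duplicate removal, against 2592149 and 3891175 in the IgG libraries of the same stages. The deposited lists held 13241 peaks at stages 12-13 and 24764 at stage 10. Peaks that overlapped an IgG peak of the same stage were left out: 2118 of them (16.0%) at stages 12-13 and 3261 (13.2%) at stage 10. On the major arms, that is both arms of chromosomes 2 and 3 and the X, the rule removed 10.5% of peaks at stages 12-13 and 1.41% at stage 10. The IgG lists themselves held 1461 arm peaks at stages 12-13 and 249 at stage 10, so the rule was not equally strict at the 2 stages. The lists compared held 11123 peaks over 1518 kb at stages 12-13 and 21503 peaks over 2319 kb at stage 10. The fragment length the caller used, which is also the smallest peak width, was 58 bp at stages 12-13 and 36 bp at stage 10, and pileups (tags stacked at the summit) were not divided by depth. Widths and pileups of the 2 stages are therefore not on 1 scale, and where both are given they stand side by side as deposited.

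Of the 11123 peaks at stages 12-13, 5014 did not overlap a stage 10 peak and counted as gained (45.1%, interval 44.2 to 46.0), and 6109 were kept. Of the 21503 peaks at stage 10, 15337 had no overlapping peak at stages 12-13 and counted as lost (71.3%, interval 70.7 to 71.9), and 6166 were kept. The same counts in the IgG lists gave 68.7% gained (4761 of 6933) and 60.3% lost (3348 of 5551). The share of gained peaks thus lay below the IgG share and the share of lost peaks above it. These are not like for like, because the longer IgG list was that of stages 12-13 and the longer ChIP list that of stage 10. Most IgG peaks also lay on the unplaced scaffolds (5226 at stages 12-13 and 5197 at stage 10). The ChIP shares moved with list length. With the stage 10 list reduced to its 11123 peaks of highest −log10 p-value, they were 60.1% gained and 62.3% lost.

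Gained and lost peaks were often near a peak of the other stage. A stage 10 peak lay within 500 bp of 62.1% of the gained peaks, and a peak of stages 12-13 lay within 500 bp of 42.3% of the lost ones. Counted as clusters, with peaks at gaps of at most 1 kb joined, 2065 of 5725 clusters at stages 12-13 were gained (36.1%) and 4937 of 8342 at stage 10 were lost (59.2%). Among clusters of 5 peaks or more, 9 of 340 were gained (2.65%) and 108 of 954 were lost (11.3%). Large clusters were thus mostly met at both stages. Their median span was 2729 bp at stages 12-13 and 2378 bp at stage 10, against 165 and 255 bp for clusters of any size. A longer stretch has more room to meet a cluster of the other stage, and the share to be had from length alone was not calculated.

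By chromosome class, the gained share was 51.1% on the major arms (1863 of 3648 peaks), 45.9% on chromosome 4 and the heterochromatic Het scaffolds (865 of 1884) and 40.9% on the unplaced scaffolds U and Uextra (2286 of 5591). The lost share was 73.4% on the arms (5013 of 6828), 70.9% on chromosome 4 and the Het scaffolds (2551 of 3599) and 70.2% on the unplaced scaffolds (7773 of 11076). The classes stood in the same order for gained and for lost peaks, except where peaks within 500 bp counted as kept, when the unplaced scaffolds had 16.6% gained, above the 12.7% of chromosome 4 and the Het scaffolds, and the highest share lost, 44.8%. The arms exceeded chromosome 4 and the Het scaffolds by 5.16 percentage points among gained peaks, and by 2.69 points without the 4 amplicon windows. On the unplaced scaffolds 47.3% of gained peaks overlapped a stage 10 peak that the IgG rule had removed, against 2.20% on the arms. In the IgG lists the arms had 91.9% gained (1342 of 1461) and 46.6% lost (116 of 249).

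**Figure D1:**
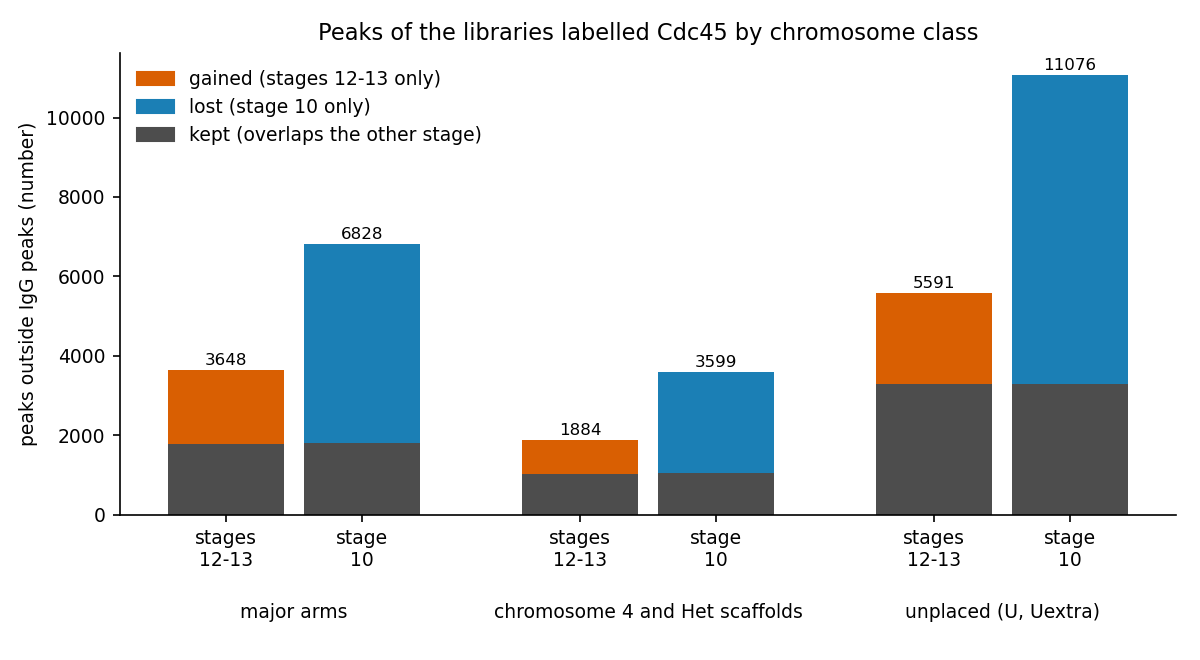
Number of peaks outside IgG peaks in the libraries labelled Cdc45, by chromosome class, with stages 12-13 left and stage 10 right in each pair. Orange marks gained, blue lost and grey kept peaks; the kept parts of each pair are nearly level, with 1785 and 1815 peaks on the major arms, while the lost parts are larger than the gained ones in every class.

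The list of stages 12-13 was shorter by about the same factor on most chromosomes. The number of peaks at stages 12-13 over that at stage 10 was 0.517 for all chromosomes, 0.534 on the arms, 0.523 on chromosome 4 and the Het scaffolds and 0.505 on the unplaced scaffolds. By length covered the ratio was 0.965 on 3L, 0.607 on X and 0.461 on 3R. The ratio on 3L rested in part on 1 locus: outside the DAFC-66D window it was 0.708, still above the 0.577 of 2L and the 0.625 of 2R. On X it was 0.480 outside the DAFC-7F window. With each arm cut into 10 equal parts, the part next to the centromere held 47.8% of arm peaks at stages 12-13 and 45.9% at stage 10. At stages 12-13 this share was 51.9% on 2L, 59.7% on 2R and 63.7% on 3L, but 23.0% on X and 17.7% on 3R. At stage 10 it was 47.6, 57.0, 64.2, 25.5 and 17.8% on the same arms. The crowding towards the centromere thus differed by arm and was alike at both stages.

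Chromosome 4, a small chromosome rich in heterochromatin, kept the largest share of its peaks among the chromosomes with 50 peaks or more in both lists. Of its 167 peaks at stages 12-13, 124 were kept (74.3%), and of its 276 peaks at stage 10, 107 were kept (38.8%). At stages 12-13 the unplaced scaffold group U (64.9% of 755 peaks kept) and 2LHet (64.0% of 111) came next, and at stage 10 2LHet (38.2% of 199). Their intervals overlapped those of chromosome 4. Arm 2L had the lowest share kept at stage 10 (22.8%) and 43.2% at stages 12-13. The kept peaks of chromosome 4 were also tall, with a median pileup of 18 tags against 15 for kept peaks of all chromosomes at stages 12-13. Among peaks with a pileup of 18 or more at stages 12-13, 65 of 66 on chromosome 4 were kept, 202 of 243 on the Het scaffolds (83.1%) and 355 of 653 on the arms (54.4%), or 335 of 456 on the arms outside the 4 amplicon windows (73.5%). At pileups of 15 to 17 the order was not the same, with 16 of 29 kept on chromosome 4 (55.2%), 62.9% on the Het scaffolds and 61.9% on the arms. At 9 to 14 tags 43 of 72 were kept on chromosome 4 (59.7%), 40.3% on the Het scaffolds and 41.4% on the arms. At stage 10, 41 of 48 peaks were kept on chromosome 4 at 18 tags or more (85.4%), 68.3% on the Het scaffolds and 55.0% on the arms, and at 9 to 14 tags 21.9, 22.1 and 20.9%.

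**Figure D2:**
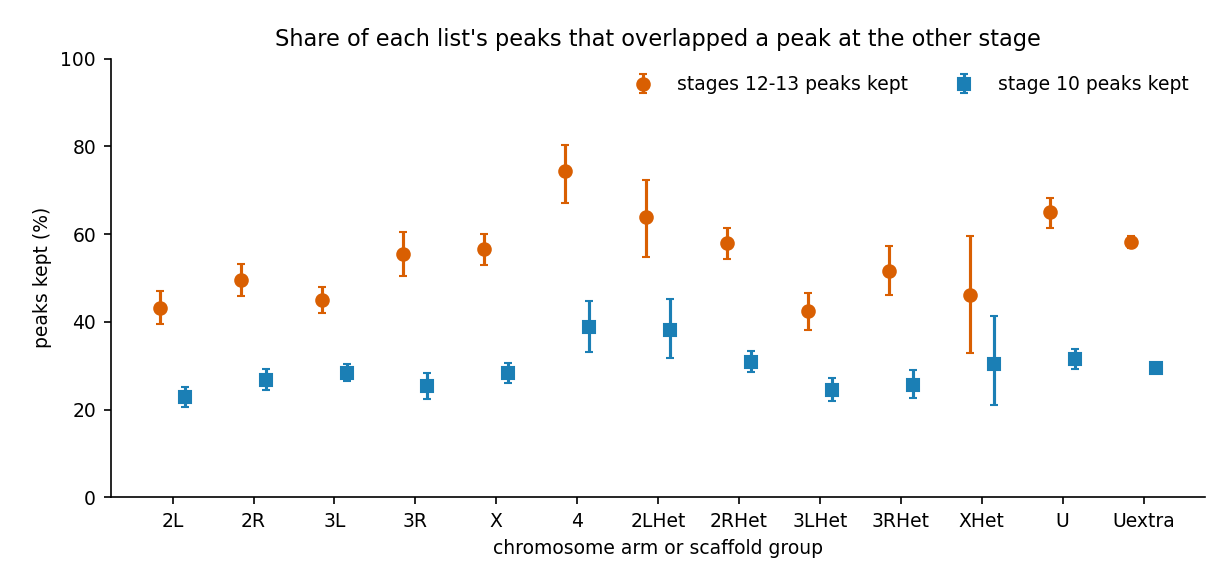
Percentage of peaks outside IgG peaks that overlapped a peak of the other stage, for each chromosome arm or scaffold group, with stages 12-13 as orange circles left of stage 10 as blue squares. Bars are Wilson 95% intervals over peaks (1 library per stage); YHet, with 5 and 12 peaks, is not drawn, and chromosome 4 has the highest value drawn at both stages, 74.3% and 38.8%.

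Narrow and low peaks were those most often met at 1 stage only. At stages 12-13 the gained share was 60.3% at pileups of 11 and 12 tags, 50.2% at 13 and 14, 38.9% at 15 to 17, 28.9% at 18 to 20 and 21.2% at 21 to 25. At stage 10 the lost share was 81.2%, 72.3%, 58.8%, 42.4% and 29.4% over the same steps of pileup. Both shares were thus lower at each step of height up to 25 tags. At 26 tags or more they were higher again, with 164 of 377 gained (43.5%) and 124 of 310 lost (40.0%).

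The tallest peaks behaved differently by place. Of the 125 peaks at stages 12-13 with 26 tags or more in the 4 amplicon windows, 109 were gained (87.2%). Elsewhere on the arms 11 of 28 such peaks were gained, on chromosome 4 and the Het scaffolds 3 of 30, and on the unplaced scaffolds 41 of 194 (21.1%). Outside the amplicon windows 55 of 252 peaks of this height were gained (21.8%). The 21.2% gained at 21 to 25 tags is not its like, because that share includes peaks in the amplicon windows. Most peaks of 21 to 25 tags in those windows were gained. The share outside the windows at that height thus lay below 21.2%, and it was not calculated. At stage 10 the amplicon windows mattered little: 117 of 295 such peaks outside them were lost (39.7%). There, 96 of the 124 tall lost peaks lay on the unplaced scaffolds (96 of 240, 40.0%), and 7 of the 15 in the amplicon windows were lost.

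Width gave the same direction as height, but a wider peak has more room for a 1 bp overlap, and this part was not tested. The narrowest 20% of the list at stages 12-13 (58 to 67 bp) was 60.5% gained and the widest 20% (168 bp and more) 24.0%. The narrowest 20% at stage 10 (36 to 44 bp) was 86.9% lost and the widest (133 bp and more) 39.1%. Peaks above their list's median in both width and pileup were 27.0% gained at stages 12-13 (905 of 3348) and 44.9% lost at stage 10 (2479 of 5527). Peaks at or below both medians were 60.0% gained (2178 of 3628) and 86.2% lost (6977 of 8098). Peaks above 1 median only lay between these values at both stages.

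**Figure D3:**
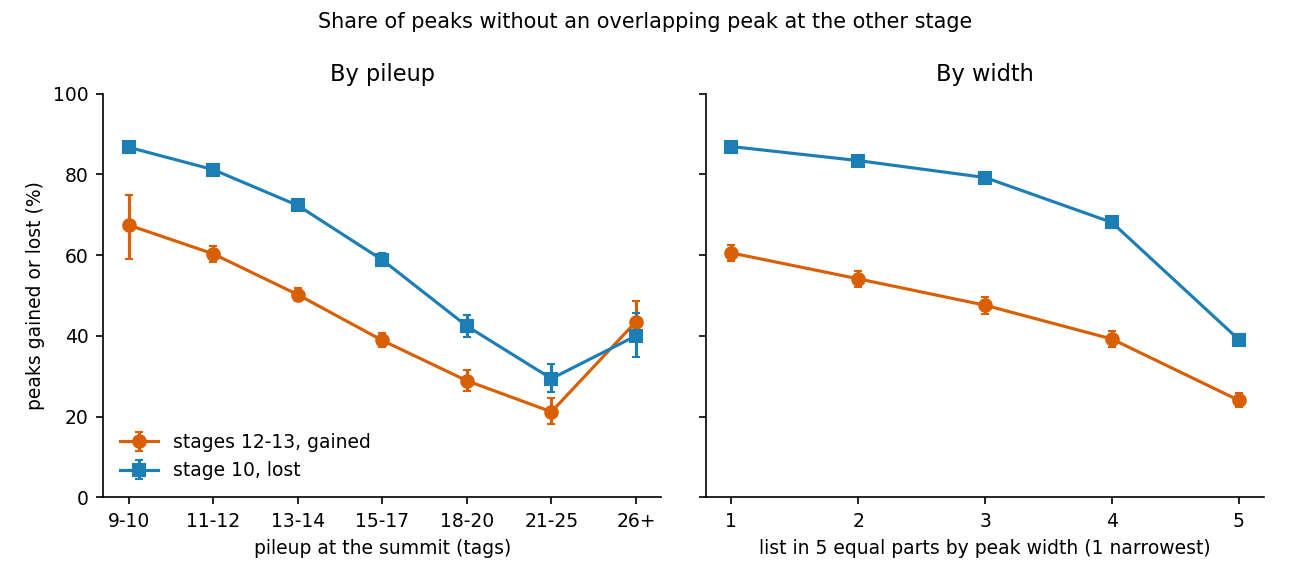
Percentage of peaks gained (stages 12-13, orange circles) or lost (stage 10, blue squares) by pileup at the summit in tags (left) and by width, each list cut into 5 equal parts (right); bars are Wilson 95% intervals over peaks. Both lines fall with height to 21.2% and 29.4% at 21 to 25 tags and are higher at 26 tags or more, at 43.5% and 40.0%; by width they fall to 24.0% and 39.1% in the widest part.

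Kept peaks that paired 1 to 1 between the stages numbered 4448. Their median width was 103 bp at stages 12-13 and 106 bp at stage 10, and their median pileup 15 and 14 tags. The summits lay a median of 39 bp apart, and in 60.1% of pairs within 50 bp. Across these pairs, which are not replicates and share their sequence and its mappability, Spearman's rho between the stages was 0.43 for pileup and 0.35 for width. Within these pairs heights were thus only loosely related between the stages, over a narrow range. The quartiles of pileup were 13 and 17 tags at stages 12-13 and 12 and 16 at stage 10. Kept peaks with 2 or more partners, among them the tallest at DAFC-66D, are not in these pairs.

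Each stage also had a library labelled SUUR, whose header run name says Cdc45, the reverse of the libraries compared. Some 22.0% of gained peaks overlapped a peak of the library labelled SUUR at stages 12-13, as did 17.2% of the kept peaks there. At stage 10 the overlap with the library labelled SUUR was 1.78% for lost and 4.05% for kept peaks, but that library held 353742 tags. At stages 12-13 the direction differed by class: the overlap was 19.2% for gained and 14.9% for kept peaks on the arms, 3.12% and 6.28% on chromosome 4 and the Het scaffolds, and 31.5% and 21.8% on the unplaced scaffolds. In the 4 amplicon windows 168 of 206 gained (81.6%) and 23 of 33 kept peaks (69.7%) overlapped, and outside them 190 of 1657 gained (11.5%, interval 10.0 to 13.1) and 243 of 1752 kept peaks (13.9%, interval 12.3 to 15.6). All libraries of a stage were called against 1 input, and its part in these overlaps was not tested.

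Summed over windows of 100 kb on placed chromosomes, the length covered by peaks was smaller at stages 12-13 in most places and larger in a few. Of 673 windows with a peak, 132 were more covered at stages 12-13 (19.6%) and 541 less (80.4%). With equal numbers of peaks from each list the windows divided almost evenly, with 323 more covered and 297 less of 620, so the smaller length in most windows moved with the length of the lists. Only 10 windows had over 1 kb more at stages 12-13, against 143 with over 1 kb less. The 3 windows with the largest positive difference (stages 12-13 minus stage 10) held 66.5% of all positive differences summed over windows.

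These 3 windows belong to the chorion amplicons. On 3L from 8.7 to 8.8 Mb, peaks covered 34.3 kb at stages 12-13 and 4.88 kb at stage 10. On X from 8.3 to 8.4 Mb they covered 20.3 kb at stages 12-13 and 2.04 kb at stage 10. On 3L from 8.6 to 8.7 Mb they covered 13.8 kb at stages 12-13, and stage 10 had no peak there. These 3 windows also ranked 1 to 3 with no peak left out for IgG, with equal numbers of peaks and at a −log10 p-value of 5 or more. The fourth, on 2L from 13.4 to 13.5 Mb in the DAFC-34B window, had 3.44 kb at stages 12-13 and 0.462 kb at stage 10, and ranked 10 with equal numbers of peaks. The next, on 2R from 1.4 to 1.5 Mb, had 6.30 kb at stages 12-13 and 4.21 kb at stage 10 and belongs to no locus listed here.

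The largest negative differences were smaller and lay in several kinds of region. Window 2.1 to 2.2 Mb of 3LHet had 3.54 kb at stages 12-13 and 9.63 kb at stage 10. On X from 0.1 to 0.2 Mb peaks covered 3.78 kb at stages 12-13 and 9.21 kb at stage 10. On 3R from 0.8 to 0.9 Mb they covered 3.02 kb at stages 12-13 and 8.40 kb at stage 10, a difference of -5.38 kb that was -2.16 kb with no peak left out for IgG. The windows at 23.3 Mb on 3L and at 15.9 Mb on X followed, with 6.11 and 6.49 kb at stages 12-13 against 11.2 and 11.4 kb at stage 10. In 4 of these 5 windows stage 10 had no IgG peak, and the 3L window had 0.061 kb of IgG peaks at stage 10 and 0.880 kb at stages 12-13. Each window had fewer peaks gained than lost, and the 3LHet window had 5 gained and 54 lost.

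**Figure D4:**
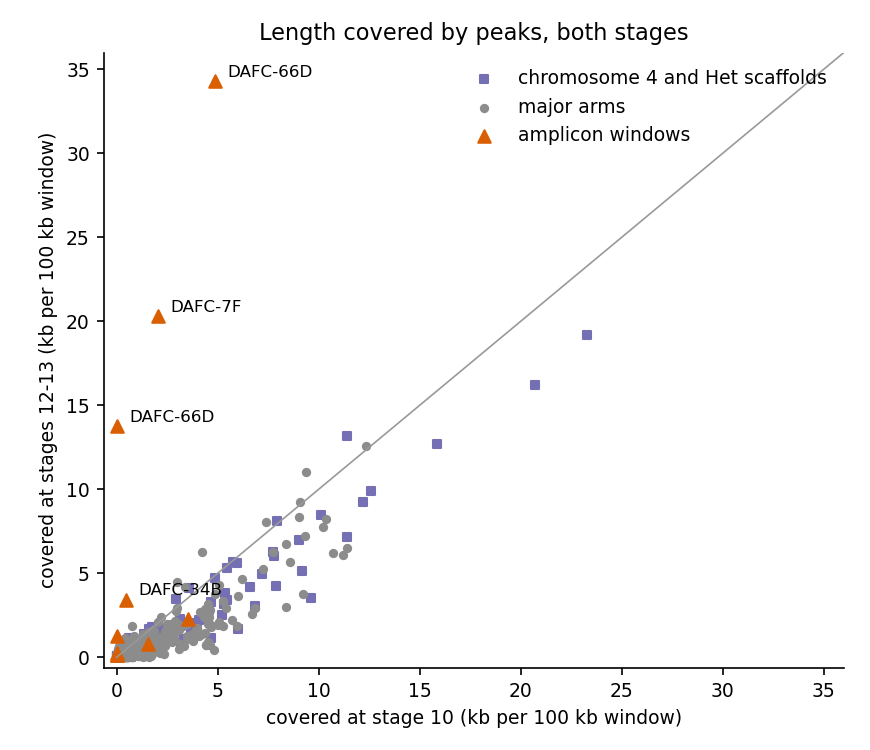
Length covered by peaks outside IgG peaks per 100 kb window on placed chromosomes, at stages 12-13 (vertical axis, kb) against stage 10 (horizontal axis, kb), with the line of equality. Most of the 673 windows lie below the line, while 2 DAFC-66D windows (34.3 and 13.8 kb at stages 12-13) and 1 DAFC-7F window (20.3 kb) stand far above it.

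At DAFC-66D (3L, 8.6 to 8.9 Mb) the library had 114 peaks over 48.2 kb at stages 12-13 and 51 peaks over 4.88 kb at stage 10. Of the 114, 106 were gained and 8 kept. Of the 51, 30 were lost and 21 kept. Of the 8 kept peaks at stages 12-13, 6 were 874 to 5844 bp wide with 80 to 103 tags, and the other 2 were 58 and 69 bp wide with 18 and 14 tags. The tallest kept peak, from 8727299 to 8732600 on 3L, had 103 tags at stages 12-13 and took in 6 stage 10 peaks of at most 32 tags. The next, from 8732654 to 8738497, had 100 tags and took in 4 stage 10 peaks of at most 27 tags.

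The covered stretch of DAFC-66D was wider at stages 12-13 on both sides. The peaks spanned 148 kb at stages 12-13 (8654559 to 8803023) and 85.5 kb at stage 10 (8703984 to 8789455). Outside the stage 10 span lay 62 peaks of stages 12-13, 54 on its low side and 8 on its high side. The high end of that span was set by a separate stage 10 group, described below. The stage 10 peaks before that group ended at 8745751, and a group of 46 peaks at stages 12-13 ran past that point, from 8726593 to 8774228. The 54 and the 8 thus do not compare the sides evenly. Within 10 kb of the summit of the tallest kept peak, stages 12-13 had 5 peaks with a median of 80 tags and stage 10 had 12 peaks with a median of 28 tags. From 30 to 40 kb away, stages 12-13 had 30 peaks over 11.1 kb, every one gained, with a median of 30.5 tags, and stage 10 had 0. From 40 to 50 kb away, stages 12-13 had 29 peaks over 4.61 kb, again all gained, with a median of 28 tags, and stage 10 had 0. From 60 to 70 kb away stages 12-13 had 12 peaks, with a median of 17 tags, and stage 10 had 1. Height at stages 12-13 was thus lower farther from the tallest peak, and peaks at 30 to 50 kb were met at stages 12-13 only. A separate group of 16 stage 10 peaks lay on the high side from 8784588 to 8789455, with a median of 13 tags, and 14 of them were lost.

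The count of lost peaks at DAFC-66D depended on the IgG rule. The rule removed 6 peaks (23.1 kb) here at stages 12-13 and 4 peaks (0.305 kb) at stage 10. The widest peak removed, from 8705734 to 8719929, was 14196 bp wide with 106 tags and was touched by 2 IgG peaks of 182 bp in all. Of the 30 lost peaks, 16 overlapped a peak of stages 12-13 that had been removed. With no peak left out, the locus had 120 peaks over 71.3 kb at stages 12-13, 109 of them gained, and 55 peaks at stage 10, 14 of them lost.

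At DAFC-7F (X, 8.3 to 8.6 Mb) no peak was left out for IgG at either stage. The library had 72 peaks over 21.8 kb at stages 12-13, 61 of them gained, and 27 peaks over 2.08 kb at stage 10, 2 of them lost. The highest pileup was 61 tags at stages 12-13 and 25 at stage 10. Most peaks of stages 12-13 lay in 2 blocks, with 1 peak of 45 tags from 8375981 and 2 peaks from 8593704 to 8594175 outside them. The first lay from 8383706 to 8403048 and held 35 peaks over 11.7 kb, of which 10 were kept; stage 10 had 26 peaks over 2.04 kb from 8382245 to 8402097. The second block at stages 12-13, from 8339322 to 8359414, held 34 peaks over 9.83 kb with 19 to 55 tags, and stage 10 had 1 peak of 22 tags at its end. Within it, 30 peaks from 8339322 to 8355289 formed the gained cluster with the largest covered length in the comparison. The second block thus lay on the low side of the first and was met almost wholly at stages 12-13. Where the middle of the amplicon lies relative to the 2 blocks was not determined.

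**Figure D5:**
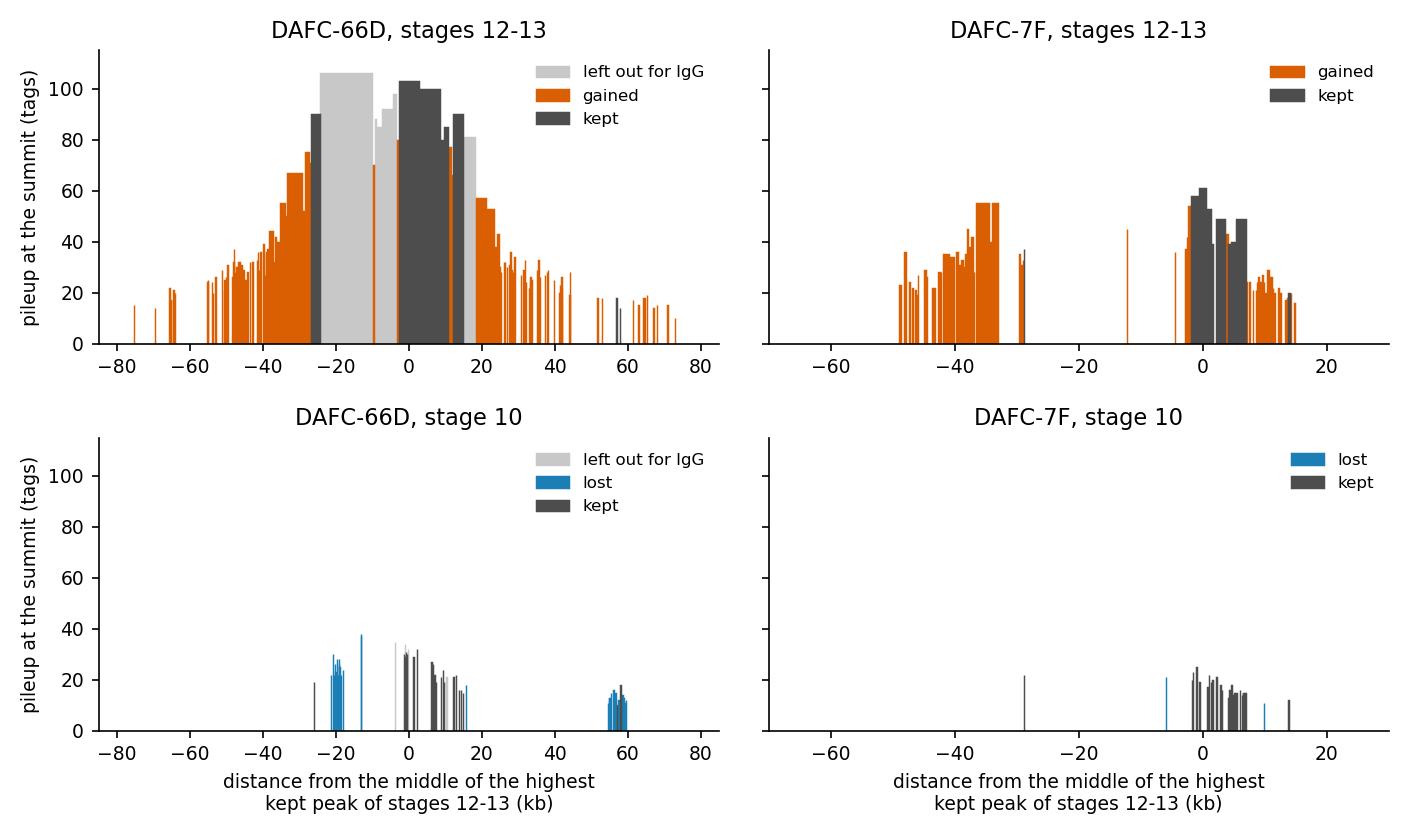
Peaks at DAFC-66D (left) and DAFC-7F (right) at stages 12-13 (above) and stage 10 (below), drawn at their width and distance in kb from the middle of the tallest kept peak of stages 12-13, with the pileup at the summit in tags as height. Orange marks gained, blue lost, dark grey kept and light grey peaks left out for IgG; 2 gained peaks at the far end of the DAFC-7F window are not drawn. Peaks at stages 12-13 reach 103 tags (kept) at DAFC-66D and 61 at DAFC-7F and extend beyond those of stage 10, which reach 38 and 25.

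The gained peaks at DAFC-66D and DAFC-7F were taller than arm peaks elsewhere in the list of stages 12-13, while their median enrichment over input was lower. The authors' fold enrichment, pileup over the local input of the same stage, had a median of 2.62 for the 106 gained peaks at DAFC-66D and 2.83 for the 61 gained peaks at DAFC-7F, against 3.19 for the 3409 arm peaks outside the 4 amplicon windows at stages 12-13. At stage 10 the medians were 2.70 for all 51 peaks at DAFC-66D and 3.09 for all 27 at DAFC-7F, against 3.70 for the 6720 arm peaks outside the windows. The median pileup was 28.5 tags for the gained peaks at DAFC-66D and 28 for those at DAFC-7F, against 14 outside the windows at stages 12-13. The 8 kept peaks at DAFC-66D had a median fold enrichment of 3.52, above that of the arm peaks outside the windows. The gained peaks of the other 2 amplicons were also taller and lower in fold than the arm peaks outside the windows. The 31 gained peaks at DAFC-34B had a median fold of 2.96 and a median of 19 tags. The 8 gained peaks at DAFC-22B had 2.72 and 20.5 tags. At stage 10 the median fold of all peaks was 3.41 at DAFC-34B, with 11 tags, and 4.27 at DAFC-22B, with 14 tags. These stage 10 values come largely from other places than the gained peaks. At DAFC-22B all stage 10 peaks lay from 1801379 to 1806707, and 7 of the 8 gained peaks lay beyond that stretch. At DAFC-34B most gained peaks lay from 13414711 to 13432642, and most stage 10 peaks lay outside it. The input library is not among the lists, so copy number there was not measured, and its part in the pileups was not tested.

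The 5 gained peaks of highest pileup all lay at DAFC-66D. They had 80, 77, 75, 71 and 70 tags, with widths of 634, 833, 1105, 503 and 358 bp and fold enrichments of 2.61, 3.77, 4.18, 2.97 and 2.07. Of the 8 clusters of 5 peaks or more at stages 12-13 that met no stage 10 peak even before the IgG rule, 6 lay in the DAFC-66D and DAFC-7F windows. These 6 held 79 peaks over 21.1 kb, with up to 57 tags. The other 2, on 3L near the centromere and on 3LHet, held 5 peaks each with at most 15 tags. At stage 10 such clusters numbered 98, none of them in an amplicon window and with at most 32 tags.

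The other follicle cell amplicons had fewer peaks. At DAFC-34B (2L, 13.3 to 13.6 Mb) there were 35 peaks at stages 12-13, 31 of them gained, and 14 peaks at stage 10, 9 of them lost. The gained peaks had a median of 19 tags and the lost peaks 11. The IgG rule removed 5 peaks (3.81 kb) here at stages 12-13 and 1 peak of 3313 bp at stage 10. All of these lay in a separate stretch from 13522361 to 13527487, as did most kept peaks of stages 12-13. Most gained peaks lay from 13414711 to 13432642, where no peak was removed. At DAFC-22B (2L, 1.8 to 2.1 Mb) there were 18 peaks at stages 12-13, 8 of them gained, and 16 peaks at stage 10, 7 of them lost. The stage 10 peaks of DAFC-22B lay within 5.33 kb, where most peaks of stages 12-13 overlapped them, while the gained peaks included 7 beyond that stretch. The like number of peaks at both stages in this window thus rested on that stretch, at its low edge (1801379 to 1806707). The 7 gained peaks beyond it lay from 1893635 to 1913877 with 16 to 25 tags, and stage 10 had no peak there.

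The histone gene cluster (2L, 21.4 to 21.6 Mb) is a tandem array of the replication-dependent histone genes. It had fewer peaks at stages 12-13 than at stage 10, as did arm 2L and the whole list. It had 41 peaks over 3.49 kb at stages 12-13, 32 of them gained, and 109 peaks over 7.81 kb at stage 10, 100 of them lost. On arm 2L 56.8% of 678 peaks were gained and 77.2% of 1348 lost, and over all chromosomes 45.1% and 71.3%. The IgG library had 72 peaks over 4.69 kb at the histone cluster at stages 12-13 and 10 peaks over 0.644 kb at stage 10. At stages 12-13 more IgG peaks and fewer ChIP peaks were thus called, in libraries of unlike depth. The ChIP peaks had a median of 20 tags at stages 12-13 and 18 at stage 10, as deposited. With no peak left out for IgG there were 57 peaks at stages 12-13, 44 of them gained, and 113 at stage 10, 100 of them lost. In a tandem repeat the place where a read is mapped among the copies is arbitrary, and overlap of single peaks between the stages is uncertain. The Bithorax complex (3R, 12.4 to 12.9 Mb), homeotic genes silenced in many tissues, had 0 peaks at both stages. The Antennapedia complex (3R, 2.4 to 2.9 Mb) had 1 gained peak of 12 tags at stages 12-13 and 1 lost peak of 11 tags at stage 10.

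The 5 lost peaks of highest pileup on placed chromosomes lay on 2L at 20204107 (46 tags, 41 bp wide) and on X between 13894248 and 13952689 (43, 41, 41 and 41 tags). Each overlapped a peak of stages 12-13 that the IgG rule had removed, so a peak had been called at each of these places at stages 12-13. The tallest lost peaks with no overlapping peak at stages 12-13 even before that rule were on X at 13945436 (31 tags), on 2R at 20589244 (30), on 3R at 6081718 (30), on 2L at 21541069 in the histone cluster (28) and on 3R at 25011165 (28). A peak of stages 12-13 lay 47 bp from the first of them and 26445 bp from the second. The 5 kept peaks of highest pileup at stage 10 on placed chromosomes had 39 to 43 tags, and their partners at stages 12-13 had 36 to 52. Of these 5, 3 lay on chromosome 4 between 1283481 and 1300224, 1 on X at 13944733 and 1 in the histone cluster.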

How the data were processed

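ChIP-seq peak lists of egg chambers were analysed. Per the submitters' processing notes, reads were handled with CASAVA 1.5 and BWA and placed on dm3. Per the file headers, the authors called peaks with MACS 2.0.10.20130419 in each library against the input of its stage, using a genome size of 120000000 and a p-value limit of 0.001, after reducing duplicate tags to 1. For each peak the authors deposited its length, its pileup (a coverage signal in whole tags at the summit, not divided by depth), the −log10 of its p-value and its fold enrichment (a ratio to the local input). Per the file headers no q-values were calculated, and that column was left aside. These values are the authors' own, and peaks were ranked and filtered by them within each list; values of both stages given side by side are not scaled to each other.

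Depth after duplicate removal was 6942374 tags at stages 12-13 and 8265341 at stage 10. From the lists, peaks overlapping an IgG peak of the same stage by 1 bp or more were left out, and a peak was kept if it overlapped a remaining peak of the other stage by 1 bp. Shares were given with Wilson 95% intervals (Python 3.11.15, SciPy 1.17.1, pandas 2.3.3). With 1 library per stage no test was made. The 5 parts of a list by width or pileup hold equal numbers of peaks, so tied values can fall on either side of a limit. Windows were 100 kb long on placed chromosomes. The overlap code was checked on simulated peaks. Members, loci and lists were chosen with earlier results of these data known. Places named are the 10 windows with the largest positive and the 10 with the largest negative difference (the first 5 of each in full), the 5 peaks of highest pileup per class and the listed loci; clusters, blocks, distance steps, the 26 tag limit and the chromosome 4 steps were chosen after values were seen. DAFC-62D, DAFC-30B, salivary gland lists, genes and sequences were not used here. Alternatives were other overlap rules, IgG rules, a stricter p-value and equal numbers of peaks. Added after seeing the data were 100 bp on each summit, separately the lists without the amplicon windows, and the unplaced scaffolds as a class.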

Additional observations from a re-analysis of the deposited data

How the results depend on the processing

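Shares are given as gained over all chromosomes, the major arms, and chromosome 4 with the Het scaffolds, then as lost in the same order; the values reported were 45.1, 51.1 and 45.9% gained and 71.3, 73.4 and 70.9% lost. Of 60 alternative values, 13 moved by no more than the counting interval and 47 by more. An overlap of at least 50% of the shorter peak gave 52.8, 60.0 and 55.3% gained and 76.2, 79.0 and 76.9% lost. A summit inside the other peak gave 59.7, 66.8 and 62.7% gained and 79.8, 82.4 and 79.4% lost. Counting peaks within 500 bp as kept gave 17.1, 20.0 and 12.7% gained and 41.2, 37.6 and 37.0% lost. The whole list of the other stage moved the share for all chromosomes to 34.7% gained and 67.9% lost, and that of the arms to 70.1% lost. With no peak left out for IgG the shares were 32.6, 47.6 and 43.0% gained and 63.7, 69.5 and 69.0% lost. Leaving out IgG peaks of either stage moved the gained shares to 41.9% for all chromosomes and 53.5% on the arms. A −log10 p-value of 5 or more gave 46.6% gained for all chromosomes, 53.9% gained on the arms, and 75.8, 78.9 and 74.8% lost. Equal numbers of peaks gave 60.1, 66.7 and 62.3% gained and 62.3, 66.1 and 60.7% lost. With 100 bp on each summit, added after seeing the data, the shares were 55.1, 59.7 and 54.7% gained and 75.5, 77.1 and 75.1% lost. Without the amplicon windows, also added, 48.6% of arm peaks were gained. Shares are lower where the rule for an overlap is looser, by construction; the cause of the other moves was not tested.

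Over these alternatives the arms exceeded chromosome 4 with the Het scaffolds by 2.69 to 7.35 percentage points gained and by 0.535 to 5.38 points lost. The order of the 3 classes, unplaced scaffolds included, was that reported under 9 of 10 alternatives at each stage; with peaks within 500 bp counted as kept, the unplaced scaffolds had 16.6% gained and 44.8% lost. No paired analysis was possible because each stage has 1 library and there were no replicates. The stages differ in depth, fragment length, list length and IgG peaks, and these cannot be told apart from the stage. A peak absent from a list was not called at its depth, and absence of binding was not measured. With and without the rule on IgG some places differed: the window on X from 10.9 to 11 Mb differed by -4.39 kb with it and by -0.281 kb without it, and the window on 2RHet from 2.8 to 2.9 Mb was higher by 1.75 kb with it and lower without it, at -0.605 kb.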

Other observations

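Along the arms, both amplicon regions stood out from a shorter list at stages 12-13. With each arm cut into 10 equal parts counted from the centromere, the number of peaks at stages 12-13 over that at stage 10 was 1.16 in the part of 3L that holds DAFC-66D (153 and 132 peaks) and 1.30 in the part of X that holds DAFC-7F (112 and 86 peaks). In the other parts of 3L it lay between 0.245 and 0.682, and in those of X between 0.267 and 0.578. In part 3 of X from the centromere 18 of 96 peaks at stages 12-13 were gained (18.8%), the lowest gained share among the parts of 3L and X, and 58.9% of 175 stage 10 peaks were lost. All 16 mitochondrial peaks of stages 12-13 overlapped an IgG peak and were left out.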
